A study of Mus musculus with 44 samples.

Results

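DNA methylation of whole blood was compared with that of hippocampus 12 h after lipopolysaccharide (LPS), in 3 libraries of each tissue out of 44 libraries in the series. The libraries were chosen by their labels, and the comparison covered the 1031883 cytosines of chromosomes 1 to 19, X and Y that stood in the 12 h table of both tissues. Reduced representation bisulfite sequencing (RRBS) was used, which reads methylation mostly in CpG-rich stretches of the genome and gives, for each cytosine, the percentage of molecules that carry a methyl group. The mice were male C57BL/6J wild type animals 8 to 12 weeks old at the start of a Gulf War Illness model. All of them, those given saline included, had drunk corticosterone (CORT, the stress hormone of rodents, 200 mg/L in 0.6% ethanol) for 7 days, had been injected with diisopropyl fluorophosphate (DFP, a nerve agent surrogate that blocks acetylcholinesterase, 4 mg/kg) on day 8, and had gone on with CORT in alternate weeks over 5 weeks. The 6 libraries compared came from mice given LPS, a component of bacterial cell walls, at 0.5 mg/kg under the skin on the last day. Where the same contrast in unchallenged mice is needed, the 4 saline blood and 3 saline hippocampus libraries are used, which were taken at 6 h, so injection and time cannot be told apart there. The labels do not say whether libraries are separate animals or whether blood and hippocampus came from the same animals, so the p-values measure the spread between these libraries, which may be technical. No untreated mice without CORT and DFP are among these groups.

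In mammals, methyl groups sit mainly on cytosines followed by guanine (CpG). Cells of a lineage keep the promoters and enhancers that they use free of methylation and carry methyl groups across most of the remaining genome, so the pattern of a tissue records which cell types it holds. Bisulfite reads methylcytosine and hydroxymethylcytosine alike, and the latter is abundant in neurons. Both tissues are mixtures, leukocytes of several kinds in blood and neurons, glia and vessel cells in hippocampus, so a difference in the mix of cells and a difference within a cell type cannot be told apart.

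The contrast can be seen at the level of single CpGs at gene starts. The 6 sequences below were taken from the 20 starts (10 in each direction) with the largest tissue difference among starts where at least 4 CpGs of the sequence were measured, and were picked after their values were seen because the genes are known for a role in brain, imprinting or blood cells. Each runs 5′ to 3′ along the gene's strand over the 250 bases before the start and the 50 that begin with it, is credited to RefSeq (GRCm38.p6), and has in capitals the CpGs that were measured in both tissues.
Arpp21, chr9:112187717-112188016, minus strand: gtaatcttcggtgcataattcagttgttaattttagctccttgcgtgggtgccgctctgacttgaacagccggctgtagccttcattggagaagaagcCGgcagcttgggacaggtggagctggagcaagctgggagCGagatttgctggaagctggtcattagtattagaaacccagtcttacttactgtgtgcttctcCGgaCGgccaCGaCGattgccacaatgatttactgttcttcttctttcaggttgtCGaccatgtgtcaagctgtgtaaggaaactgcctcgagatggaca
Slc6a16, chr7:45240503-45240802, plus strand: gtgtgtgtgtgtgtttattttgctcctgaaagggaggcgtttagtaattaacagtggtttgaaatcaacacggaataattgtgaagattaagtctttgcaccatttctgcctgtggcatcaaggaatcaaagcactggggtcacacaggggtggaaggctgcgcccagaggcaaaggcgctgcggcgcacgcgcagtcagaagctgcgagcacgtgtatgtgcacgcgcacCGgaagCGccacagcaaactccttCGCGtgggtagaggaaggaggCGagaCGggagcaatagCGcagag
Mcts2, chr2:152686898-152687197, plus strand: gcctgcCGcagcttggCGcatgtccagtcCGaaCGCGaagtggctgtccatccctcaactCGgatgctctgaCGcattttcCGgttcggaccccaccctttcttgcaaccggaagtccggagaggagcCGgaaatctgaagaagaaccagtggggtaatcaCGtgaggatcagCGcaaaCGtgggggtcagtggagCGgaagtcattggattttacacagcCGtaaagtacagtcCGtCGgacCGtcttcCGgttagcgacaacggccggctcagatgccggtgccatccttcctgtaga
Tnfsf14, chr17:57194132-57194431, minus strand: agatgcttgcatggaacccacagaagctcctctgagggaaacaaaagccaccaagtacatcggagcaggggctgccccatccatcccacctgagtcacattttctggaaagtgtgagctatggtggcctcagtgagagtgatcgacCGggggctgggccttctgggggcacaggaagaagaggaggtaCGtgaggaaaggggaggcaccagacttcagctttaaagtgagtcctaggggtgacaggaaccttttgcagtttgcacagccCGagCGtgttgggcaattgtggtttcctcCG
Vav1, chr17:57278850-57279149, plus strand: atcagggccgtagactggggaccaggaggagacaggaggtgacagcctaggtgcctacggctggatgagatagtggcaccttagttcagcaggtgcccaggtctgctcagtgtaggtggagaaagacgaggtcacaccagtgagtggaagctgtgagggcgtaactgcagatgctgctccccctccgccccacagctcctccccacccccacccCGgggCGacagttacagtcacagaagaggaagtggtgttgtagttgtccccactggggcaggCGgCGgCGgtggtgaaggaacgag
Fes, chr7:80387897-80388196, minus strand: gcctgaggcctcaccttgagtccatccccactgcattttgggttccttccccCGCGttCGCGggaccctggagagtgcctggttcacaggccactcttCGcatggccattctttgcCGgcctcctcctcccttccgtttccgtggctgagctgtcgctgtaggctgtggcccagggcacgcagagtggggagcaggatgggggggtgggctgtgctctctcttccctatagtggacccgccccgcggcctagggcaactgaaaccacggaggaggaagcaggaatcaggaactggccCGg

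The capitals of the first 3 sequences were methylated in blood and mostly unmethylated in hippocampus. Arpp21 encodes a phosphoprotein of the brain that responds to cyclic AMP. In the window that runs from 1000 bp upstream of the start to 500 bp downstream (12 cytosines), methylation was 82.7, 76.2 and 80.5% in the 3 blood libraries and 12.9, 6.25 and 10.3% in the 3 hippocampus libraries. Slc6a16 encodes an orphan member of the neurotransmitter transporter family and lies next to Cd37, a tetraspanin of leukocytes. Its 31 cytosines were at 87.1, 90.2 and 89.3% in blood and at 14.0, 10.9 and 14.1% in hippocampus. Mcts2 is a paternally expressed imprinted copy gene inside an intron of H13. Its 29 cytosines were at 94.4, 94.1 and 93.6% in blood and at 38.1, 19.7 and 28.3% in hippocampus. In none of the 3 windows did the tissues overlap.

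The other 3 sequences were close to unmethylated in blood. Tnfsf14 encodes LIGHT, a ligand of the tumour necrosis factor family made by immune cells. Its 10 cytosines were at 1.28, 1.10 and 4.04% in blood and at 74.1, 66.8 and 78.0% in hippocampus. Vav1 encodes an exchange factor that relays antigen receptor signals in blood cells. Its 5 cytosines were at 0, 2.08 and 1.67% in blood and at 60.5, 37.4 and 50.9% in hippocampus. Fes encodes a tyrosine kinase of myeloid cells, and its 20 cytosines were at 1.35, 0.788 and 2.14% in blood and at 38.3, 35.4 and 47.4% in hippocampus. In each of the 6 sequences every measured cytosine differed in the same direction. Not all of the 20 starts paired role and direction as these 6 do. In the same window the difference, blood minus hippocampus, was -41.2 points at Sncg, a synuclein gene of neurons. It was 66.5 points at Dgka, a kinase gene of T cells. The 6 are therefore examples and give no rule for the 20.

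**Figure D1:**
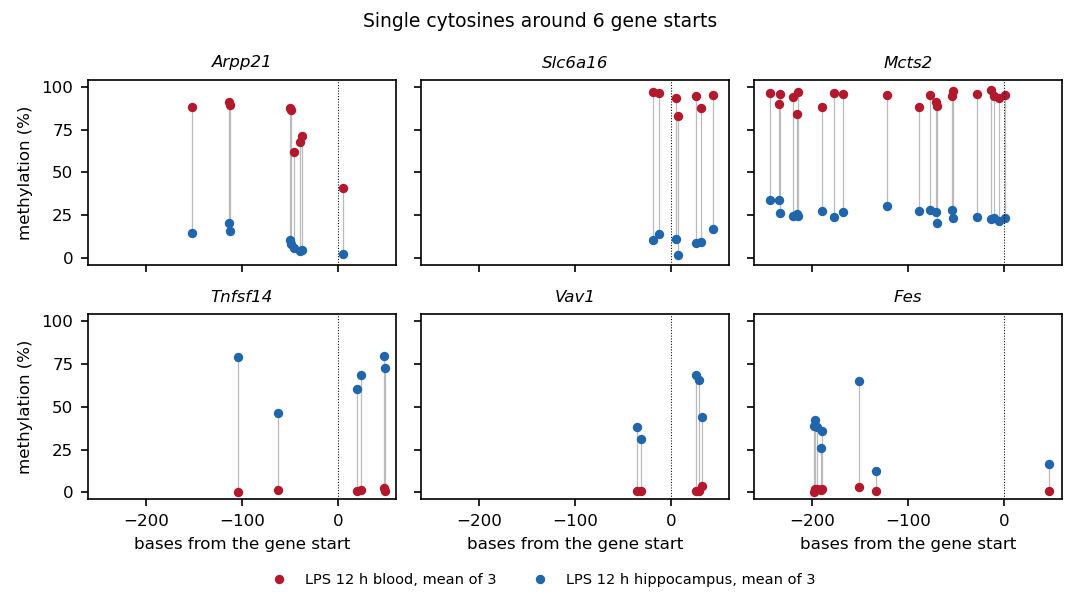
Methylation (%) of single cytosines against their distance from the gene start (bases, dotted line at the start), as the mean of the 3 LPS 12 h blood libraries (red) and of the 3 LPS 12 h hippocampus libraries (blue), with grey lines joining the 2 tissues at a cytosine. In the upper row (Arpp21, Slc6a16, Mcts2) blood lies above hippocampus at each cytosine, and in the lower row (Tnfsf14, Vav1, Fes) it lies below.

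Over all shared cytosines blood was the more methylated tissue. Mean methylation was 31.5, 32.5 and 32.7% in the 3 blood libraries and 29.4, 27.0 and 29.9% in the 3 hippocampus libraries. That is 32.2% ± 0.685 (SD, n = 3) against 28.8% ± 1.55 (n = 3), a difference of 3.46 points with no overlap between tissues. The exact permutation test (two-sided) gave p = 0.1, the smallest that 3 against 3 libraries allow. Without hippocampus replicate 2, the lowest library, the difference was 2.58 points. The 2 tissues differed more in the shape of their levels than in the mean. Cytosines at intermediate levels of 20 to 80% made up 9.89% ± 0.318 in blood and 14.4% ± 0.262 in hippocampus, and cytosines over 80% made up 27.8% ± 0.967 and 21.7% ± 1.87 (exact permutation p = 0.1 for each). In the saline libraries the order of the intermediate share was the other way, with 15.1% ± 0.274 (n = 4) in blood and 13.9% ± 0.135 (n = 3) in hippocampus.

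**Figure D2:**
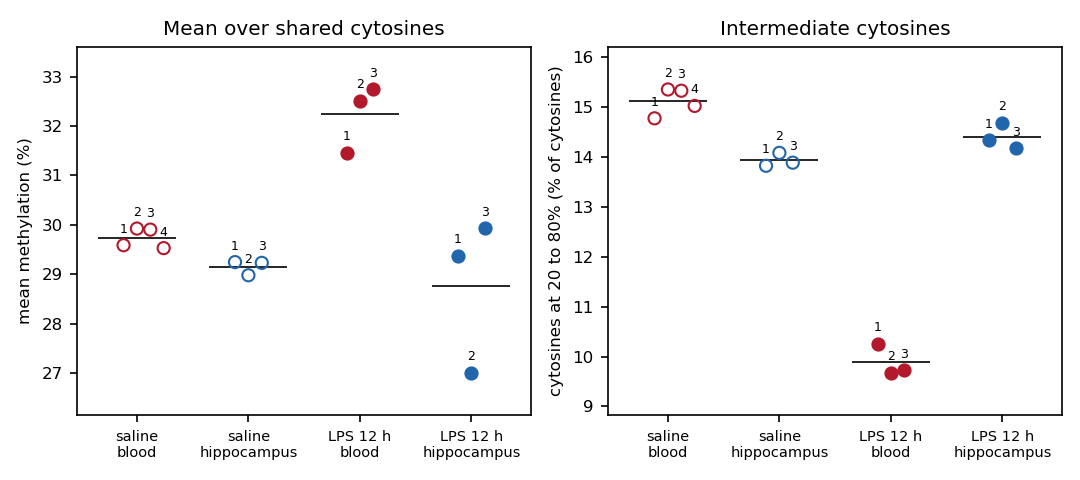
Mean methylation over the shared cytosines (left, %) and share of cytosines at 20 to 80% (right, %) in each library, numbered by replicate, with a line at the group mean. Filled points are LPS 12 h and open points saline libraries. LPS blood has the highest means and, at 9.89% on average, the lowest share of intermediate cytosines, and hippocampus replicate 2 has the lowest mean (27.0%).

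Libraries of a tissue resembled each other closely, with 1 that stood apart. Across the 81500 windows of 1000 bp (tiles) with at least 3 shared cytosines, Pearson's r between 2 LPS blood libraries was 0.992 to 0.995. It was 0.994 between hippocampus replicates 1 and 3, and 0.980 and 0.984 between either of them and replicate 2. An LPS blood and an LPS hippocampus library correlated at 0.856 to 0.892. A saline blood and a saline hippocampus library correlated at 0.927 to 0.930, and LPS blood with saline blood at 0.929 to 0.933, so by this measure saline blood was about as close to saline hippocampus as to LPS blood. These correlations run across tiles of the same genome, which are not independent. Where leaving out 1 library moved a printed count or median of a gene list by more than 1.5 times, the value without it is given below.

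The labels of the blood libraries were looked at through Spi1, a gene that leukocytes use. Spi1 encodes PU.1, the master factor of myeloid cells and B cells. Its tile at chromosome 2, 91097000 to 91097999, inside the gene, was at 2.93, 3.44 and 4.74% in LPS blood and at 83.1, 62.4 and 82.7% in LPS hippocampus. The 4 saline blood libraries ranged from 66.0 to 78.8% there and the 3 saline hippocampus libraries from 73.5 to 79.1%. At this gene the LPS blood libraries were close to unmethylated and the saline blood libraries were not. There the libraries labelled saline blood thus go against that label, and other leukocyte loci went either way. The tile near the start of Arhgap45 was at 71.5% in saline blood, 73.9% in saline hippocampus and 2.04% in LPS blood. That near the start of Coro1a was at 68.6, 35.1 and 5.07% in the same order. The measured cytosines of the Dok3 start were at 48.0, 55.0 and 2.38%. Over the measured cytosines of the Vav1, Fes and Tnfsf14 sequences above, saline blood was at 16.4, 6.54 and 48.9%. Saline hippocampus was at 52.1, 29.8 and 67.9%. The tile shared by Cd37 and Slc6a16 was methylated in LPS blood, at 90.0% against 9.67% in LPS hippocampus. These loci, a few picked from many, thus do not settle either label, and the cause was not tested. Every result below that uses saline blood, the interaction included, takes that label as given.

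Tile by tile, the tissues differed at 47.6% of the windows that could be tested. Of the 81500 tiles, 56258 had a mean over the 6 libraries of 5 to 95% and were tested with limma, where a call needed an adjusted p below 0.05 and 5 or more points between the tissues. Of these, 20122 (35.8%) were higher in blood and 6634 (11.8%) were lower, and the median difference over tested tiles was 2.88 points, or 1.81 points without hippocampus replicate 2. With no limit on the mean, over 81463 tiles, it was 0.50 points. The split of directions leans on the general level of each library. With the mean of every library subtracted first (centring), 17036 tiles were higher and 13756 lower, so that 55.3% of called tiles were higher in blood in place of 75.2%, and the median difference was -0.58 points. Large differences were common in both directions, with at least 25 points at 10318 tiles higher in blood (18.3%) and 2328 lower (4.14%), and at least 50 points at 3561 (6.33%) and 765 (1.36%). Of 376249 single cytosines tested, 28.2% were higher in blood and 8.4% lower (36.6% in either direction, with at least 10 points). The libraries of the tissues did not overlap at 26418 of the 26756 called tiles. They did not overlap at 32535 of all 56258 tested tiles (57.8%), and a call by itself favours no overlap.

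The levels behind these calls were not symmetric. Of all 81500 tiles, 30390 were over 80% in both tissues and 23919 under 20% in both. The commonest contrast, 11991 tiles, was a tile over 80% in blood and at 20 to 80% in hippocampus. The reverse, at 20 to 80% in blood and over 80% in hippocampus, held for 2182 tiles. A full switch was rare, with 736 tiles over 80% in blood and under 20% in hippocampus, and 137 under 20% in blood and over 80% in hippocampus. Without hippocampus replicate 2 these numbers were 560 and 203.

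**Figure D3:**
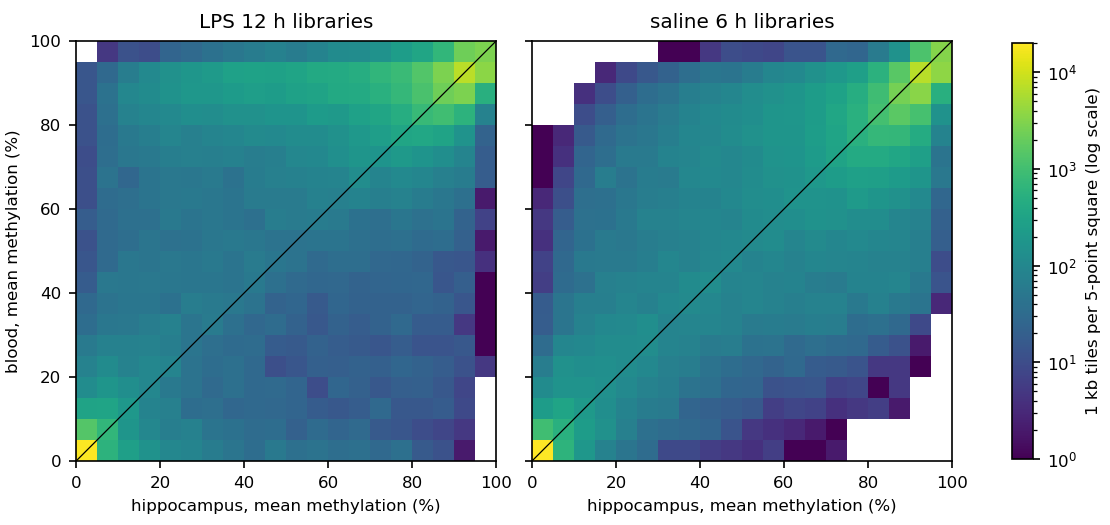
Number of 1 kb tiles (colour, log scale) by mean methylation in hippocampus (x axis, %) and blood (y axis, %), in squares of 5 points, for the LPS 12 h libraries (left) and the saline libraries taken at 6 h (right). In LPS the tiles off the diagonal gather in a band above 80% in blood that spans all hippocampus levels, while in saline they lie nearer the diagonal line of equal levels.

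Place in the genome went with direction to a degree. Tiles inside protein-coding genes, away from their listed starts, were higher in blood at 43.4% and lower at 11.0%. Tiles outside genes were higher at 26.8% and lower at 12.3%, and tiles within 1 kb of a listed start at 40.4% and 14.2%. The share higher in blood was 33.8% where a tile held 3 to 4 cytosines and 40.6% where it held 20 or more. Neighbouring tiles mostly went the same way, as 1589 of the 1847 adjacent pairs in which both tiles were called did (86.0%). Genes were not uniform, however. Of the 3594 genes with 2 or more called tiles, 1479 (41.2%) had tiles in both directions. Gse1, which encodes a subunit of a histone deacetylase complex, had 40 tiles higher and 11 lower in blood, and Camta1, a calmodulin-binding transcription activator, had 25 and 9. Both were named after their counts were seen.

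The sex chromosomes departed from the autosomes. On chromosome X, 127 of 825 tested tiles were higher in blood (15.4%) and 119 lower (14.4%). Without hippocampus replicate 2 the order turned, with 118 of 827 higher and 129 lower. On chromosome Y 114 of 125 tested tiles (91.2%) were lower in blood by limma, with a median difference of -18.5 points. The mean over the 128 measured tiles of chromosome Y was 67.1, 69.2 and 69.3% in LPS blood and 86.9, 84.9 and 86.8% in LPS hippocampus. Saline libraries had the same order, 72.3% in blood and 86.6% in hippocampus. Without hippocampus replicate 2, 114 of 125 tiles were again lower. Only 7 of the 128 tiles lie in protein-coding genes of the table used, and the mouse Y chromosome is known for its many repeated copies, among which short reads are hard to place.

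The largest single differences were nearly complete switches. The 12 tiles of largest difference in each direction, 1 per gene, with at least 5 cytosines and no overlap between tissues, were named. The 12 that were higher in blood held 88.3 to 97.8% in every LPS blood library and 0.650 to 13.03% in every LPS hippocampus library. The 12 that were lower held 1.10 to 15.6% and 72.3 to 97.4%. Limma's adjusted p was 2.73e-06 to 3.75e-06 for these tiles. Of the 24, 23 lie inside a gene and only 2 within 1 kb of a listed gene start.

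Among the tiles methylated in blood were homeobox genes, regulators of small GTPases and regulators of blood cell production. Sipa1 encodes a GTPase-activating protein for Rap1. Its tile (chromosome 19, 5654000 to 5654999, 18 cytosines) was at 95.6, 97.6 and 97.6% in blood and at 6.82, 1.55 and 10.04% in hippocampus, a difference of 90.8 points (SE 4.42). Runx1 encodes a factor that definitive blood stem cells need to arise. Its tile (chromosome 16, 92605000 to 92605999, 15 cytosines) was at 94.6, 93.8 and 90.0% against 8.31, 3.62 and 5.32%. Sh2b3 encodes Lnk, a brake on cytokine signals in blood cells, and its tile (chromosome 5, 121829000 to 121829999) was at 96.3% ± 1.05 against 9.29% ± 3.96 (n = 3 each). Rasal3, a Ras-inactivating protein of lymphocytes, was at 90.1% ± 1.84 against 3.06% ± 1.03 at its 36 cytosines (chromosome 17, 32396000 to 32396999). Carmil2, an actin regulator that T cells need for costimulation, was at 90.0% ± 1.501 against 2.52% ± 1.62 (chromosome 8, 105694000 to 105694999). Hoxa3 (92.0% against 1.46%), Hoxb3 (93.9% against 3.76%), the helix-loop-helix factor Tcf4 (94.0% against 3.93%), the kinase Taok3 (91.9% against 3.13%), the zinc finger factor Casz1 (89.7% against 1.77%), Specc1 (95.7% against 7.79%) and the calcium channel subunit Cacnb2 (91.9% against 4.52%) were the others.

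Of the 12 tiles unmethylated in blood, all but that of Tspoap1 lay inside a gene. P2rx7 encodes a channel that opens on extracellular ATP and triggers release of interleukin 1. Its tile (chromosome 5, 122678000 to 122678999, 11 cytosines) was at 2.31, 2.95 and 3.196% in blood and at 89.9, 83.2 and 89.3% in hippocampus. Prkce encodes protein kinase C epsilon, and its tile (chromosome 17, 86206000 to 86206999) was at 7.03% ± 1.72 against 92.0% ± 1.99, a difference of -85.0 points (SE 4.14). Pla2g4a encodes the cytosolic phospholipase that frees arachidonic acid, and its tile (chromosome 1, 149954000 to 149954999) was at 14.0% ± 1.45 against 94.1% ± 2.02. Arhgap45 was at 2.04% ± 0.550 against 83.6% ± 3.69 in a tile within 1 kb of its start (chromosome 10, 80017000 to 80017999). Ripor2, which restrains RhoA in neutrophils and T cells, was at 4.01% ± 1.59 against 82.6% ± 9.21, with hippocampus replicate 2 at 72.3%. Tspoap1 (3.32% against 87.9%), Septin9 (9.07% against 93.5%), Heg1 (1.72% against 85.1%), Nomo1 (9.34% against 88.4%), Tapt1 (7.23% against 85.9%), Shisal1 (4.94% against 82.8%) and the kinase Rps6ka1 (4.11% against 81.6%) made up the rest.

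**Figure D4:**
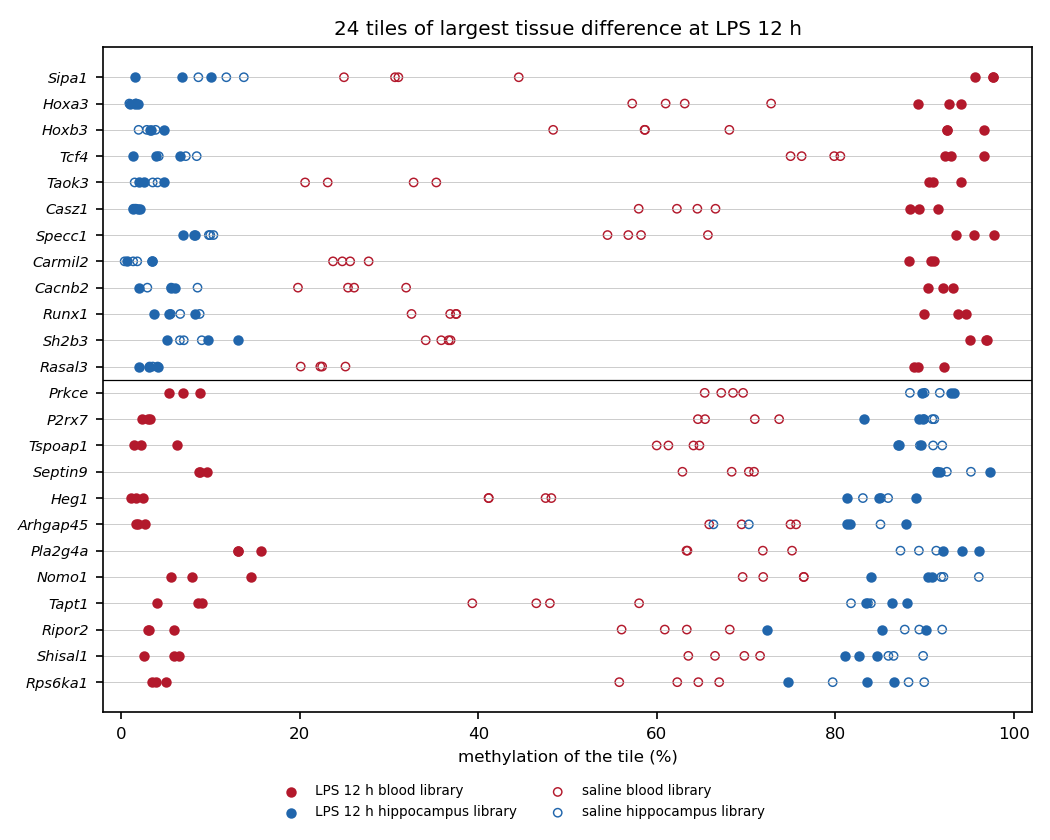
Methylation (%) of the 24 tiles of largest tissue difference at LPS 12 h, named by gene, in every library: filled red, LPS 12 h blood; filled blue, LPS 12 h hippocampus; open red, saline blood; open blue, saline hippocampus. The 12 tiles above the line are higher in LPS blood and the 12 below it lower. Saline blood libraries (19.8 to 80.6% above the line, 39.3 to 76.5% below) lie between the LPS tissues.

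Gene means over the whole gene with 1000 bp on either side were compared for lists of genes with a known role. Of 10869 genes tested by limma, 4896 (45%) were higher in blood and 743 (6.84%) lower, or 51.9% in either direction, with a median difference of 2.36 points. With each library centred there were 2991 higher and 4102 lower, and the median was -1.10 points. With no limit on the mean the median over 15482 genes was 0.93 points, and without hippocampus replicate 2 (limit kept) there were 4799 higher and 1025 lower. Genes with a mean under 5% or over 95% were not tested, so a gene that is near 0 in one tissue enters only if the other is methylated, and the counts below are set beside those background shares as a description.

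Most genes that neutrophils use were lower in blood. Of 9 neutrophil genes tested (10 measured of 17 listed), 7 were lower by limma and 2 did not pass, with a median difference of -25.7 points. Over all 10 measured, with no limit on the mean, 7 were lower and 1 higher with a median of -22.9 points. Of their 21 tested tiles 15 were lower and 3 higher. A Gfi1 tile (chromosome 5, 107721000 to 107721999) was at 73.8% in blood against 1.95% in hippocampus. Cebpe encodes the factor that drives the last steps of granulocyte maturation. It was at 29.1, 35.3 and 35.4% in blood and at 90.4, 93.9 and 91.2% in hippocampus, without overlap (adjusted p = 2.00e-05 by limma). Csf3r, the receptor of the growth factor of neutrophils, was at 4.38% ± 2.07 against 58.8% ± 10.4 (n = 3 each). Mpo, the peroxidase of neutrophil granules, was at 41.7% ± 6.52 against 86.9% ± 3.41, and Prtn3, a granule protease, at 6.36% ± 0.629 against 44.99% ± 4.42. In saline blood these genes were at 70.9% (Cebpe), 36.0% (Csf3r), 77.4% (Mpo) and 37.2% (Prtn3).

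Genes shared by most leukocytes were split, with 11 of 21 tested lower in blood and 4 higher (median -7.73 points, but -1.02 points without hippocampus replicate 3, where 8 of 19 were lower). With each library centred 17 were lower and 4 higher. Spi1 as a whole was at 4.60, 7.83 and 9.82% in blood and at 80.7, 54.8 and 82.2% in hippocampus, where replicate 2 was the low one. Cytip, which loosens leukocyte adhesion, was at 36.0% ± 2.96 against 87.7% ± 0.724. Itgal, the alpha chain of the integrin LFA-1, was at 19.9% ± 1.84 against 61.1% ± 6.85, and Cd48, a ligand on leukocytes, at 45.7% ± 1.83 against 85.9% ± 2.93. Vav1 as a whole was at 53.6% ± 1.18 against 77.8% ± 4.99. The member furthest the other way was Runx3, a factor of cytotoxic T cells, which was higher in blood at 38.4% ± 1.07 against 21.3% ± 1.03. Coro1a, an actin regulator of leukocytes, was at 13.8% ± 0.638 in blood and 14.8% ± 0.772 in hippocampus and did not pass the test (adjusted p = 0.235 by limma). Its mean joins called tiles of opposite direction. Near its start (chromosome 7, 126703000 to 126703999) blood was lower at 5.07% against 43.4%. At 126699000 to 126699999 blood was higher at 92.2% against 81.4%.

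Lymphocyte genes went both ways. Of 15 T cell genes tested, 7 were higher and 3 lower in blood, or 7 and 5 with centring. Lat, the adaptor of the T cell receptor, was at 64.7, 65.1 and 63.8% in blood and at 89.1, 89.6 and 89.4% in hippocampus. Cd27, a costimulatory receptor, was at 33.1% ± 4.07 against 57.8% ± 4.72. In contrast Cd5, an inhibitory receptor of T cells, was higher in blood at 67.1% ± 3.44 against 42.5% ± 4.00, as was Bcl11b, the factor that commits cells to the T lineage, at 45.8% ± 0.148 against 29.0% ± 3.24. Of 8 B cell genes tested, 4 were higher and 1 lower, or 3 and 3 with centring and 4 and 2 without hippocampus replicate 2. The lower one was Cd74, the invariant chain of antigen presentation, at 54.9% ± 5.51 against 87.5% ± 4.15. Blk, a kinase of B cells, was higher at 79.2% ± 4.18 against 50.6% ± 0.998. Of 11 microglia and macrophage genes tested, 2 were higher and 1 lower, or 2 and 6 with centring. Without hippocampus replicate 2 they were 2 and 3, without blood replicate 1 or hippocampus replicate 3 they were 3 and 0, and without blood replicate 2 or hippocampus replicate 1 they were 2 and 0, so the list has no stable direction. Tmem119, a surface protein of microglia, was lower in blood at 76.6% ± 1.36 against 83.8% ± 2.98. Neither of the 2 monocyte genes tested passed by limma, nor did the single natural killer cell gene, and 1 of each was lower with centring. Of 4 erythroid and platelet genes tested, 2 were higher in blood, Nfe2 (39.3% against 21.5%) and Itga2b (45.2% against 34.3%). Both genes held tiles in each direction. At the start of Itga2b (chromosome 11, 102469000 to 102469999) blood was lower at 27.9% against 63.0%, and over the gene ends alone the Itga2b difference was -35.1 points. At Nfe2 a tile (chromosome 15, 103259000 to 103259999) was at 10.003% in blood against 84.8%.

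Genes of neurons were higher in blood. Of 24 neuronal and synaptic genes tested (all 32 measured), 21 were higher by limma and 3 did not pass, with a median of 11.0 points. Over all 32 measured, with no limit on the mean, 25 were higher and 1 lower with a median of 5.98 points. With centring 16 were higher and 2 lower. Camk2a encodes the kinase of long-term potentiation, and was at 76.8, 80.3 and 82.9% in blood and at 44.3, 38.9 and 47.9% in hippocampus. Gria1, a glutamate receptor subunit, was at 69.8% ± 0.871 against 39.3% ± 4.88. Dlg4, the scaffold PSD-95, was at 68.6% ± 0.819 against 44.0% ± 2.54, and Shank3, another postsynaptic scaffold, at 43.8% ± 2.45 against 25.9% ± 1.61. Of 10 neuronal transcription factors tested (26 measured), 7 were higher and 1 lower, or 5 and 3 with centring. Leaving out 1 library gave 4 and 1 without blood replicate 2 or 3, 5 and 0 without hippocampus replicate 1 or 2, and 7 and 0 without hippocampus replicate 3. Npas4, which neuronal activity induces, was at 44.6% ± 2.12 against 25.2% ± 1.23. Prox1, a factor of dentate granule cells, was at 33.6% ± 1.74 against 15.5% ± 3.56. Dlx6, a factor of interneurons, was lower in blood but near the floor in both tissues, at 3.41% ± 0.696 against 6.68% ± 0.967. Of 18 potassium and sodium channel genes tested, 12 were higher and 1 lower, or 8 and 2 with centring. Kcnd3, a potassium channel gene, was among the former at 33.1% ± 1.76 against 20.2% ± 2.16.

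Glial genes showed the same lean. Of 9 astrocyte genes tested, 8 were higher and 1 lower in blood, or 6 and 1 with centring. Aqp4, the water channel of astrocyte endfeet, was at 75.1, 67.8 and 70.4% in blood and at 28.7, 20.1 and 30.7% in hippocampus. Saline blood was at 30.2% there and saline hippocampus at 30.4%. Aldh1l1, a folate enzyme used to mark astrocytes, went the other way at 7.10% ± 3.10 against 35.8% ± 4.64. Of 12 oligodendrocyte genes tested, 9 were higher by limma and 3 did not pass, while 7 were higher and 2 lower with centring, and over all 16 measured the median was 5.53 points in place of 10.2. Mbp, a main protein of myelin, was at 46.6% ± 0.989 against 31.4% ± 4.97, and Myrf, the factor that switches on myelin genes, at 79.1% ± 1.34 against 62.4% ± 4.35. Of 15 endothelial and pericyte genes tested, 6 were higher and 2 lower, or 5 and 5 with centring, 7 and 4 without hippocampus replicate 2, and 6 and 1 without blood replicate 1 or 3. Pecam1, an adhesion molecule of endothelium that leukocytes and platelets carry too, was higher at 75.1% ± 2.05 against 60.1% ± 5.31, and Esam, another of endothelium, lower at 9.96% ± 0.338 against 18.97% ± 4.00.

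**Figure D5:**
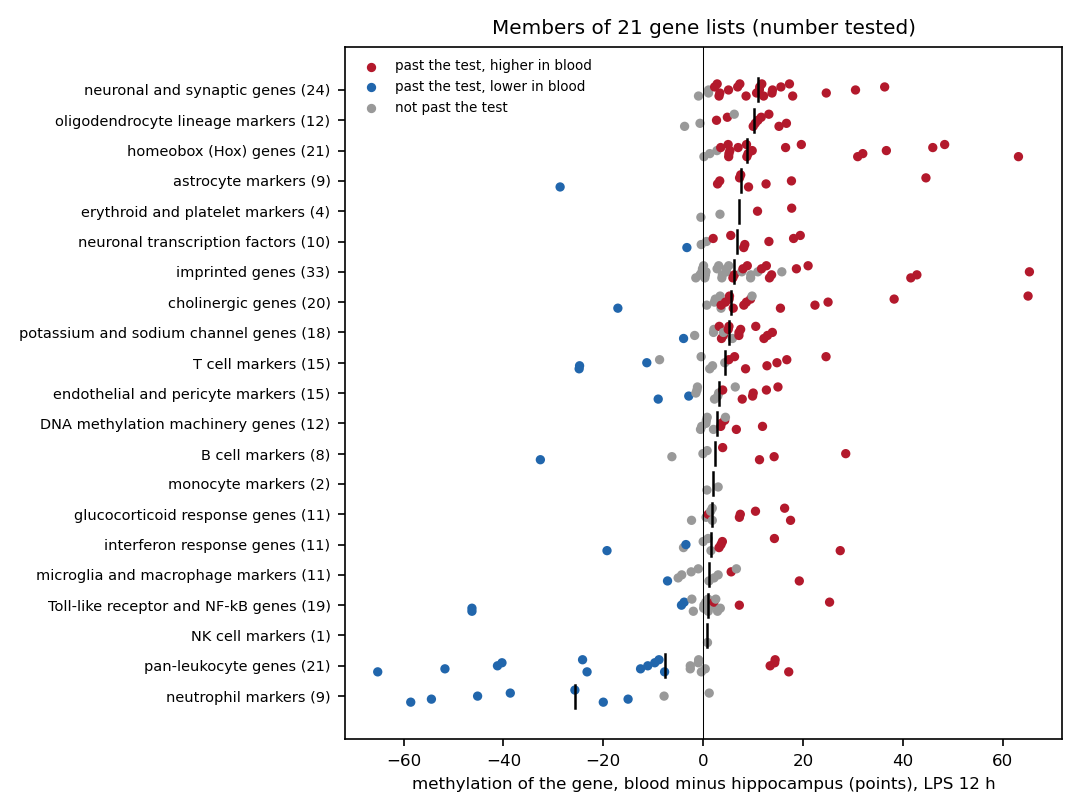
Difference in gene mean methylation, blood minus hippocampus at LPS 12 h (percentage points), for each tested gene of the lists (red, called higher in blood; blue, called lower; grey, not called) with the list median (bar). Neutrophil genes have the lowest median (-25.7 points) and neuronal and synaptic genes the highest (11.0 points), beside 2.36 points over all 10869 genes tested. Genes with a mean under 5% or over 95% are not shown. With them the neutrophil median is -22.9 points and the neuronal and synaptic median 5.98 points.

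The acetylcholine system, which DFP acts on, held 1 of the largest gene differences. Chrm1 encodes the muscarinic receptor that prevails in hippocampus, and was at 88.5, 84.0 and 84.2% in blood and at 22.6, 18.1 and 20.9% in hippocampus over 12 cytosines. That is a difference of 65.04 points (SE 1.87, adjusted p = 8.76e-06 by limma), while saline blood was at 27.0% and saline hippocampus at 23.3%. Of 20 cholinergic genes tested, 13 were higher and 1 lower in blood, or 10 and 2 with centring. The nicotinic receptor subunit gene Chrna6 was at 75.7% ± 2.88 against 37.5% ± 7.13, and Chrna9 was the lower one at 57.9% ± 1.96 against 74.9% ± 3.63. Of 11 glucocorticoid response genes tested, 6 were higher by limma and 5 did not pass, while 5 were higher and 4 lower with centring. Zbtb16 (37.7% against 20.2%) and Klf9 (16.8% against 6.36%), both transcription factors that glucocorticoids induce, were among them. Fkbp5, a chaperone that restrains the glucocorticoid receptor, was at 7.00% ± 0.0625 in blood and 6.43% ± 0.823 in hippocampus and did not pass (adjusted p = 0.359 by limma).

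Genes of the response to LPS itself had no common direction. Of 19 Toll-like receptor and NF-kB genes tested, 3 were higher and 4 lower in blood, or 2 and 11 with centring. Ccl3 and Ccl4, neighbouring chemokine genes that were measured by the same 5 cytosines, were at 31.7, 43.5 and 29.8% in blood and at 82.7, 76.6 and 84.7% in hippocampus. Tnf, the cytokine gene, was higher in blood at 88.8% ± 0.926 against 63.5% ± 6.28. Of 11 interferon response genes tested, 5 were higher and 2 lower, or 2 and 5 with centring and 3 and 2 without blood replicate 1 or 3. Oas3, a sensor of viral RNA, was at 91.9% ± 1.52 against 64.5% ± 6.70, and Irf9, a part of the complex that interferon activates, at 24.5% ± 2.39 against 43.8% ± 3.17. Of 12 genes of the methylation machinery tested, 5 were higher by limma and 7 did not pass, while 2 were higher and 5 lower with centring and 3 were higher without blood replicate 2 or 3. Mbd2, a reader of methylated DNA, was at 23.7% ± 0.167 against 11.8% ± 3.27, and Tet2, an enzyme that oxidises methylcytosine, at 28.7% ± 0.609 against 22.1% ± 1.02.

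The Hox genes, which set position along the body axis and are active in blood precursors but hardly in forebrain, were nearly unmethylated in hippocampus. All 39 were measured, with means of 0.741 to 6.56% in hippocampus, and 7 exceeded 20% in blood. In 28 of the 39 all blood libraries lay above all hippocampus libraries, and in 1 they lay below. These counts have no share over all genes beside them and are a description. The span of Hoxa3 contains Hoxa5 and Hoxa6, so some members share cytosines. Of the 21 that entered the test 18 were higher by limma and 3 did not pass, while 14 were higher and 2 lower with centring. Hoxa5 was at 56.5, 68.5 and 78.7% in blood and at 5.91, 2.56 and 5.80% in hippocampus. Hoxb3 was steadier, at 38.7, 39.0 and 38.3% against 1.86, 2.10 and 2.03%. Saline blood was at 19.996% at Hoxa5 and 14.5% at Hoxb3.

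Imprinted genes are methylated on the copy from 1 parent, so that their control regions sit near the middle of the scale in every cell. Of the 114 tiles with imprinted genes, 48 were at 30 to 60% in saline hippocampus. Of these 48, LPS hippocampus was within the same limits in 39, saline blood in 39 and LPS blood in 33. The 9 tiles of LPS hippocampus outside them were all under 30%. LPS blood exceeded 60% in 12 and 80% in 9. Tiles at several known control regions were not called, as at Plagl1 (47.8% ± 3.99 in blood, 41.8% ± 12.3 in hippocampus) and Peg3 (48.1% ± 1.81 and 46.9% ± 12.3). The Mcts2 start whose sequence is printed above was called. Its tile (chromosome 2, 152687000 to 152687999) was at 94.0% ± 1.37 in LPS blood and 24.8% ± 5.71 in LPS hippocampus, with 55.6% in saline blood and 35.1% in saline hippocampus. Of 33 imprinted genes tested, 13 were higher by limma and 20 did not pass, and 12 were higher with centring.

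Gene starts as a class were unmethylated in both tissues. Of the 12179 listed starts with at least 3 shared cytosines in the window from 1000 bp before to 500 bp after, 10462 (85.9%) had a mean under 5%. Of the 1681 starts tested by limma, 718 (42.7%) were higher in blood and 230 (13.7%) lower, or 56.4% in either direction. In bins of 200 bp the mean was 2.08% in blood and 1.64% in hippocampus around 100 bp before the start, and 39.6% and 31.9% around 2900 bp after it. The 300-base sequence at each start was searched on both strands for short motifs of blood and brain factors. AGGAAGT, bound by ETS factors such as PU.1, was found in 16.1% of the starts lower in blood, in 6.56% of those higher, in 7.52% of those tested and not called, and in 7.14% of all 12609 windows. It lies at base 241 of the Vav1 sequence. TGTGGTT, bound by RUNX factors, was in 5.65, 4.46, 3.56 and 3.16% of the same sets, and at base 287 of the Tnfsf14 sequence. CAGATGG, bound by NeuroD factors, was in 4.35, 6.14, 3.69 and 3.32%. GGGCGGG, bound by SP and KLF factors, was in 28.3, 29.7, 31.9 and 49.9%, and its reverse complement is at base 236 of the Fes sequence. TGACGTCA, bound by CREB, was in 0.435, 1.39, 2.74 and 2.97%. The sets differ in CpG content, with medians of 8, 10, 11 and 22 CpGs per window, and a match of letters is not a measured binding site.

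The tissue difference at LPS 12 h was set beside that between the saline libraries. Over all 56293 tiles tested, whatever their call, the median absolute difference was 7.17 points in LPS and 6.01 points in saline, and it was smaller in saline at 62.6% of tiles. The difference of the differences was tested by limma over 13 libraries. Blood minus hippocampus was more positive in LPS than in saline at 15500 tiles (27.5%) and more negative at 3306 (5.87%). In size, whatever the sign, the tissue difference was larger in LPS at 9750 of the 15500 and at 2558 of the 3306. With each library centred, blood minus hippocampus was more positive in LPS at 12590 tiles and more negative at 5347. At the tiles higher in LPS blood, median levels were 88.5% in LPS blood, 71.5% in saline blood, 51.7% in LPS hippocampus and 55.4% in saline hippocampus. At those lower in LPS blood they were 43.4, 65.4, 80.2 and 82.2% in the same order. These tiles were chosen by their LPS levels, which by itself favours a wider gap in LPS than in saline, so the medians are a description only. Since LPS and saline libraries differ in time as well as injection, and blood can change its mix of cells, these cannot be told apart, and the levels of saline blood at leukocyte genes given above bear on every one of these values.

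The tiles below are examples, taken from those with the largest difference of the differences, so a large value there was fixed by the choice. At Ccm2l, a scaffold gene of endothelium, a tile of 45 cytosines (chromosome 2, 153071000 to 153071999) was at 94.9, 94.4 and 94.1% in LPS blood and at 31.8, 24.1, 17.7 and 26.0% in saline blood. Hippocampus was at 7.85% ± 1.54 after LPS and 10.6% ± 1.51 after saline there. At Slit3, a guidance cue, the order of the tissues turned over, with 91.2% in LPS blood against 31.7% in LPS hippocampus, but 25.02% in saline blood against 42.2% in saline hippocampus. At Arhgap45 the LPS blood libraries were at 2.04% ± 0.550 and the saline blood libraries at 71.5% ± 4.64.

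The LPS libraries of the other times, which the 12 h comparison did not use, gave the same contrast. At 6 h (4 blood and 4 hippocampus libraries), 25050 of the called tiles were measured and 99.3% had the same sign, with 86.8% also free of overlap. At 24 h (3 blood and 4 hippocampus libraries), 23266 were measured, with 99.3% and 89.5%. Over tested tiles whatever their call, the sign was the same at 87.3% of 51873 at 6 h and 87.4% of 48553 at 24 h. Called tiles were chosen for their difference at 12 h, which by itself favours a kept sign. Differences of the called tiles at 6 h and 24 h had Pearson's r of 0.982 and 0.984 with the 12 h values. This is a description over tiles that are not independent. The Sipa1 tile was at 90.2% in blood and 5.25% in hippocampus at 6 h, and at 95.9% and 6.12% at 24 h. The P2rx7 tile was at 8.475% and 89.8% at 6 h, and at 1.63% and 93.0% at 24 h.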

How the data were processed

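The authors deposited 1 table per tissue and time with the percent methylation (0 to 100) of single cytosines in each library. Libraries were built from 100 ng of DNA (Ovation RRBS Methyl-Seq), as the labels' protocols state. Per the submitters' processing notes, the tools were methylKit, SAMtools, Bowtie2, Bismark, FastQC and Trim Galore, and the build GRCm38/mm10. Their versions, settings and coverage minimum were not given in the sources read. The tables hold no read counts, so depth is unknown and no counting interval is given.

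No table of frontal cortex was used, and 0 columns of the tables used were left out. The 12 h tables of blood (1083654 cytosines) and hippocampus (1296182) were joined by chromosome, position and strand. Percent values were averaged over tiles of 1000 bp (at least 3 cytosines), genes with 1000 bp on either side (at least 5) and starts. Features with a mean of 5 to 95% were compared with limma 3.58.1 in R 4.3.3 (two-sided moderated test with a mean trend in eBayes, adjusted by Benjamini-Hochberg). Calls needed an adjusted p under 0.05 and, for tiles, 5 points, or for single cytosines 10 points. The interaction used 13 libraries in 1 fit. The steps were tested on simulated data. Gene spans and starts are RefSeq's (GRCm38.p6). Python 3.11.15 was used elsewhere. Named tiles were the 12 per direction (6 for the interaction) with the largest difference, at least 5 cytosines and no overlap; named list genes were the 4 largest called members, the called member furthest the other way and a list of fixed genes, and not all are printed. The comparison, the 22 gene lists and the rules were chosen with earlier results of these data known. Alternatives were other filters, scales, centring, window sizes, a replicate block and leaving out each library.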

Additional observations from a re-analysis of the deposited data

Results flagged for a closer look

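The tissue difference at LPS 12 h (blood minus hippocampus) and that in saline differed by limma's interaction test at 18806 of 56293 tiles (33.4%). The 12 tiles given here were picked from these for the largest values in each direction, by the rule for named tiles above. The LPS difference was greater by 76.6 points at Slit3, 75.3 at Slco3a1, 74.6 at Ptpn14, 73.8 at Foxn3, 73.0 at Crim1 and 72.3 at Ccm2l. LPS minus saline was -79.2 points at Arhgap45, -67.9 at Spi1, -63.1 at Cfdp1, -62.7 at P2rx7, -62.7 at Prkce and -61.4 at Tmem123. At Ptpn14 and Crim1 LPS hippocampus was itself at 62.9% and 62.8%, below saline hippocampus at 78.5% and 74.8%, with hippocampus replicate 2 the lowest library at 46.4% and 54.7%.

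In the saline blood group 1 library stood apart from the other 3 at 2 tiles. At Runx1 the gap took a share of 0.862 of the range, with 1 library at 32.5% and the others at 36.8 to 37.5%. At Cfdp1 it took 0.941, with 1 library at 59.9% and the others at 67.2 to 67.7%. Among 37 groups examined, chance marks about 5%.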

How the results depend on the processing

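Depth is unknown, the groups are small, and the direction of many genes depends on the general level of each library. Compared with 20122 tiles higher and 6634 lower, 4896 and 743 genes, 718 and 230 starts, 106061 and 31588 cytosines, and 15500 and 3306 tiles for the interaction, counts moved by over 1.5 times as follows. Centring each library gave 13756 lower tiles, 2991 higher and 4102 lower genes, 47806 lower cytosines and 5347 lower interaction tiles. At least 10 cytosines per tile gave 2985 higher and 828 lower, and 2298 and 561 for the interaction. At least 20 cytosines per gene gave 477 lower genes, gene ends alone 1361 and 312, windows of 250 bp around starts 350 and 126, and both strands averaged 15893 and 4881 cytosines; all of these tested fewer features. Leaving out 1 library gave 17144 to 20713 higher and 5110 to 7536 lower tiles, 3551 to 5029 and 517 to 1025 genes, 605 to 721 and 184 to 241 starts, 85320 to 104528 and 24035 to 33500 cytosines, 13586 to 17401 and 2915 to 4172 interaction tiles, and a mean difference of 2.58 to 4.04 points. Replicate numbers did not pair the tissues (r = -0.10, -0.08 and 0.11 for equal numbers), and the replicate block gave 19941 and 6513 tiles, 4129 and 600 genes, 640 and 207 starts, and 102378 and 29524 cytosines. Itga2b was -35.1 points, Pdgfrb -5.99 and Coro1a 1.47 over gene ends, all turned in direction, and the cause was not tested. Fkbp5 turned to -2.89 points with centring, which takes the same 3.46 points off the difference of every gene. Of the other values for named genes, 1029 kept direction and call, 36 lost the call and 1 gained it, and the 298 for named tiles, 206 for interaction tiles and 160 for named starts kept both.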
